A study of Homo sapiens with 9 samples.

Results

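The genes described here are 36 genes of mitosis and the spindle: the cyclins and the kinase of mitotic entry, the CDC25 phosphatases, the mitotic kinases, the spindle checkpoint, the anaphase machinery, kinesins, centromere and kinetochore proteins, spindle proteins, FOXM1 and MYBL2, and the proliferation genes TOP2A and MKI67. They were chosen by gene name from the deposited count table of 58735 genes, with earlier results of these data known. All 36 were found, and all 36 were among the 15555 genes that passed the filter on low counts. The question was whether they moved with the genes of S phase when CDO1 was knocked down.

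RNA was measured in VCaP cells, an established human prostate cancer cell line, here of 1 line only. In 3 libraries the cells had received a control siRNA (siCtrl), in 3 an siRNA against CDO1 named siCDO1A, and in 3 another siRNA against CDO1 named siCDO1C. The labels give the siCtrl cells as wild type, and all 9 libraries came from cells grown with serum and 2 nM of the androgen DHT. CDO1 encodes cysteine dioxygenase, which oxidizes cysteine. The labels call the libraries of a group biological replicates and give each a batch number, 1 to 3, which equals its replicate number. The time between transfection and harvest is not given in the sources used here.

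A dividing cell copies its DNA in S phase and separates the copies in mitosis, and the genes for these steps are read in separate waves. Genes of DNA replication are switched on at the passage from G1 to S phase, largely through E2F factors. Genes of mitosis follow in G2, through a complex that holds B-MYB, the product of MYBL2, and then FOXM1, which act at promoters that commonly hold a CHR element and CCAAT boxes, the latter bound by NF-Y. Most mitotic messages are therefore low outside G2 and M phase, so in a bulk culture fewer cells in those phases and less RNA per cell cannot be told apart.

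Each library held between 12061295 and 16073698 counts. Levels are given as CPM, each library's counts scaled to a common total, which 3 counts reach at between 0.186 and 0.248 CPM. CDO1 (ENSG00000129596, chr5:115804733-115816954, minus strand) was at 14.2, 14.1 and 13.7 CPM in the siCtrl libraries, at 3.28, 2.05 and 2.18 with siCDO1A, and at 1.10, 2.82 and 1.16 with siCDO1C. It was thus 82.1% ± 4.83 and 87.9% ± 6.98 lower (SD, n = 3 each), with every knockdown library below every siCtrl library, and the exact two-sided permutation test gave p = 0.1, the smallest that 3 against 3 libraries allow. All 10 luminal prostate marker genes were measured, with a summed level of 6420 to 6570 CPM in siCtrl, 7210 to 7620 with siCDO1A and 6760 to 6930 with siCDO1C. A sum weighs abundant genes most, and the single genes moved both ways. By the test described below 2 were higher and 3 lower with siCDO1A (50%, beside 14.8% of all genes tested). With siCDO1C 1 was higher and 2 lower (30%, beside 4.77%). Their median log2 fold changes were -0.04 and -0.06. Of the fibroblast and muscle markers 3 of 7 passed the filter, and their list summed to 19.6 to 24.5, 21.2 to 24.4 and 15.4 to 18.9 CPM in the same order. A fibroblast or muscle marker and an endothelial marker, 1 of each, were at 0 in all 9 libraries. Endothelial markers summed to at most 2.67 CPM and leukocyte markers to at most 0.994 CPM in any library. Whether these shifts had a part in the results was not tested. The siCDO1C replicate 2 library stood apart from the other 2 of its group, as described below, and the counts and the members it moved most are given with and without it.

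The mitosis and spindle genes as a group did not follow the S phase genes. A list of 55 S phase genes, which encode proteins of replication origins, DNA synthesis and nucleotide supply, was higher with both siRNAs, and its median log2 fold changes were 0.23 (siCDO1A) and 0.24 (siCDO1C). The 36 mitosis and spindle genes had a median of -0.06 with siCDO1A and -0.03 with siCDO1C, against 0.01 and -0.00023 over all genes tested. Both siRNAs were compared with the same 3 siCtrl libraries, so the pair of comparisons are not independent of each other. The S phase list was already known from these data to be higher, and its counts are a description.

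In the siCDO1A libraries 3 of the 36 members were higher and 3 lower at an adjusted p of at most 0.05, by edgeR's quasi-likelihood test with Benjamini-Hochberg adjustment over all genes tested. These 6 make up 16.7% of the members, and 14.8% of all genes tested were called, 7.37% higher and 7.48% lower. Of the 55 S phase genes 27 were higher and 1 was lower, or 50.9%. DESeq2 called fewer of them, 20, with 19 higher and 1 lower. It called 15.8% of the 11839 genes to which it gave an adjusted p. With siCDO1C 2 members were higher and 2 lower, which is 11.1% of the members beside 4.77% of all genes, 2.27% higher and 2.5% lower. There 13 S phase genes were higher and 0 lower by edgeR, or 23.6%. DESeq2 called 15, and 5.43% of the 13561 genes to which it gave an adjusted p. At an unadjusted p below 0.05 with siCDO1C edgeR had 33 S phase genes higher and 1 lower, and 2 members higher and 3 lower. Of the 15555 genes tested 1401 were higher and 1489 lower at that level. With siCDO1A 5 members were higher and 8 lower, beside 2216 and 2131 of all genes tested. Counts at this level for the role groups below stand beside these counts for all genes. All 3 siCDO1A libraries lay above all 3 siCtrl libraries for 2364 of the 15555 genes tested and below them for 2400. With siCDO1C the counts were 1888 and 1872. Among the members they were 7 and 8 with siCDO1A, and 2 and 4 with siCDO1C. Groups without overlap were thus common, and those named below for single genes stand beside these counts. With the replicate number as a block, 2 of the members and 14 of the S phase genes were called with siCDO1A, where 8.73% of all genes were, and 3 and 8 with siCDO1C, where 4.08% were. The members' count with siCDO1A ranged from 2 without siCtrl replicate 1 (8.67% of all genes) to 12 without siCDO1A replicate 3 (22.2%), and that with siCDO1C from 0 without siCtrl replicate 2 (1.75% of all genes, with 4 members at an unadjusted p below 0.05 by edgeR) to 9 without siCDO1C replicate 2 (13.3%).

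**Figure D1:**
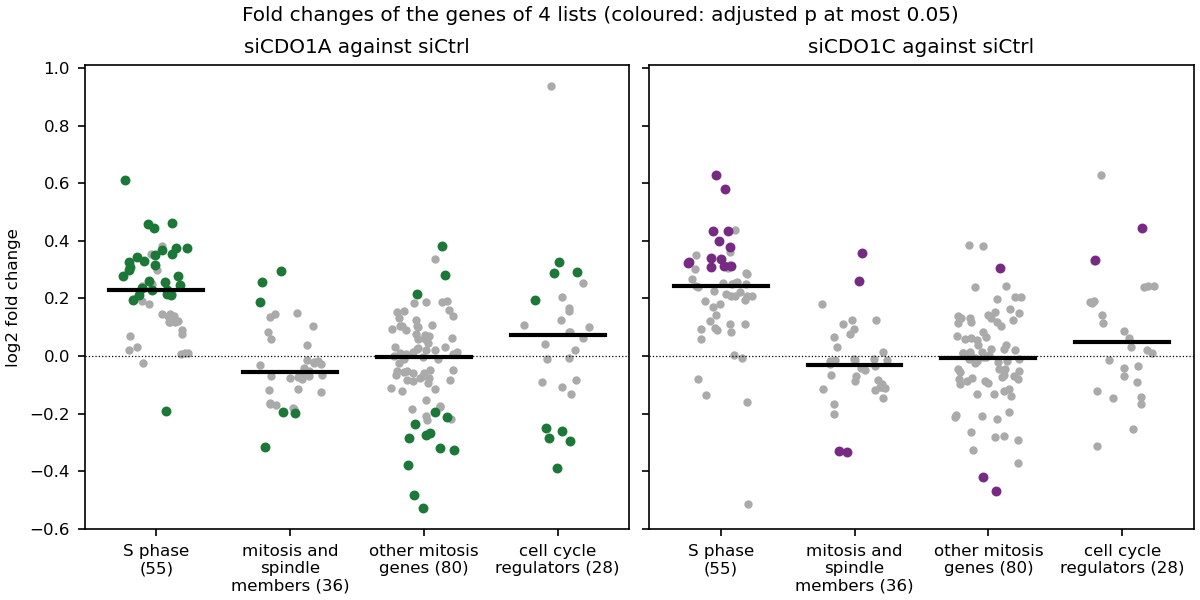
Log2 fold change of each gene (vertical axis) in 4 gene lists, with siCDO1A (left) and siCDO1C (right) against siCtrl; each point is a gene, coloured where its adjusted p was at most 0.05, and black bars are list medians. The bar of the 55 S phase genes lies at 0.23 and 0.24, and that of the 36 mitosis and spindle genes at -0.06 and -0.03.

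The difference between both lists was seen in each library. The mean log2 CPM of the members, set against the siCtrl mean, was -0.04, -0.05 and -0.01 in the siCDO1A libraries and -0.05, 0.01 and -0.04 in the siCDO1C libraries, where the siCtrl libraries had an SD of 0.02. For the S phase genes the same mean was 0.24, 0.20 and 0.23 with siCDO1A and 0.21, 0.27 and 0.18 with siCDO1C. Every one of the 6 knockdown libraries was therefore higher for the S phase mean than all 3 siCtrl libraries, while for the members' mean the libraries of each siRNA overlapped those of siCtrl. Within batch 1, 2 and 3 the median log2 fold change of the members was -0.08, -0.05 and -0.02 with siCDO1A, and -0.08, 0.05 and -0.02 with siCDO1C. The S phase medians within the same batches were 0.24, 0.20 and 0.21, then 0.19, 0.32 and 0.20.

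**Figure D2:**
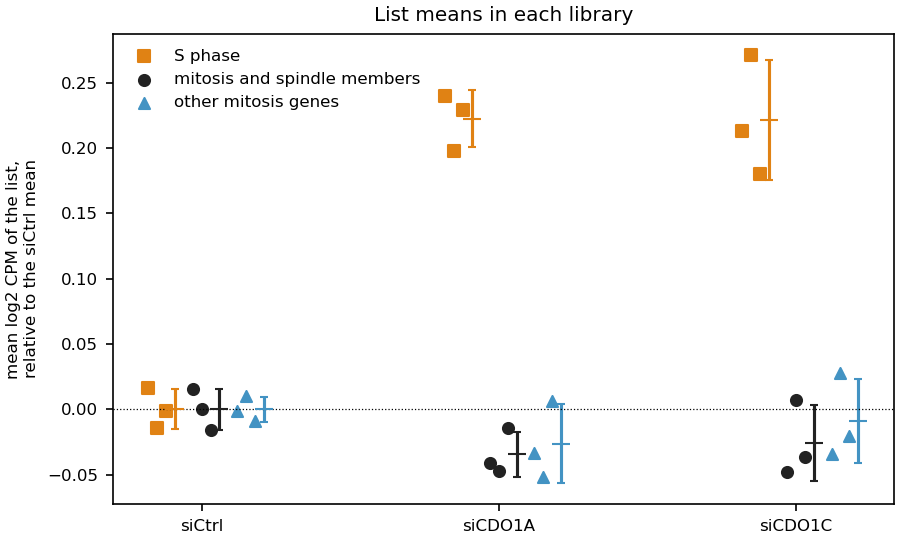
Mean log2 CPM of each list relative to the siCtrl mean (vertical axis) in the 9 libraries, with the group mean and SD as a bar beside the points. The S phase squares lie between 0.18 and 0.27 in all 6 knockdown libraries, and the circles of the mitosis and spindle genes lie between -0.05 and 0.01.

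The precision of single genes sets what these data can show. The 95% interval of a member's log2 fold change had a median reach of 0.14 to either side with siCDO1A and 0.17 with siCDO1C. With siCDO1A, 28 of the 36 intervals lay wholly below the S phase median, 8 held it (CDK1, CDC25A, UBE2C, MYBL2, KIF11, KIF20A, NDC80 and PRC1) and 0 lay above it. With siCDO1C, 25 lay below it and 11 held it, namely those 8 with AURKB, MAD2L1 and MKI67. In both comparisons the only members at or above the S phase median were KIF11 and KIF20A. Most genes tested lay below that median too. The upper quartile of the log2 fold change over all genes tested was 0.16 with siCDO1A and 0.14 with siCDO1C. How many of their intervals lay below it was not counted, so the members' counts do not set them apart from other genes. Among the S phase genes 1 of 55 had a log2 fold change below the members' median with siCDO1A, and 4 of 55 with siCDO1C.

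**Figure D3:**
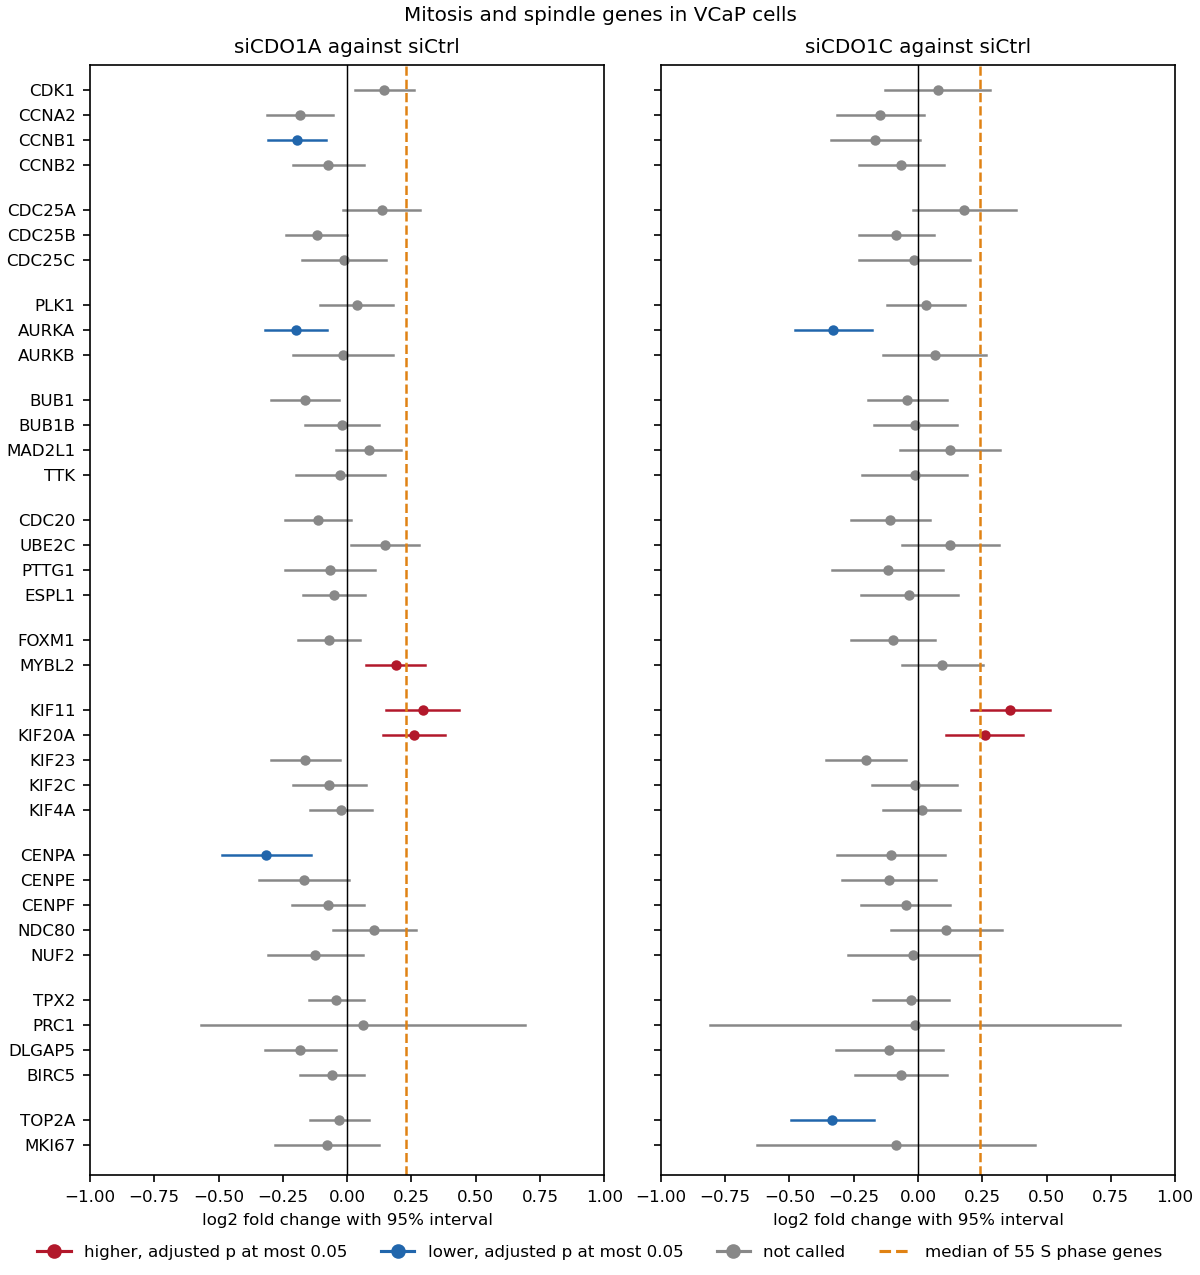
Log2 fold change (horizontal axis) of the 36 members, grouped by role, with 95% intervals from edgeR; red is higher and blue lower at an adjusted p of at most 0.05, grey is not called, and the dashed line is the S phase median. The intervals of 28 members with siCDO1A and 25 with siCDO1C end left of the dashed line, and KIF11 and KIF20A reach or pass it in both panels.

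The promoters of the members show the elements named above, and 4 are printed because their genes moved in different directions. The windows run from 250 bases before to 50 bases after the RefSeq start of the gene (GRCh38.p14), and 30 of the 36 members matched one. A CHR element was searched as TTTGAA or TTCGAA, the NF-Y box as CCAAT, and an E2F site as TTCCCGC, as TTGGCGC, as TTCGCGC or as TTGCCGC, all on both strands. Matches do not overlap in the printed windows. They are in capitals and are listed by how far the left end lies before the start. KIF20A, higher with both siRNAs, holds CCAAT boxes at 94 and 67 bases. KIF11, higher with both, holds a CCAAT box at 53 and a CHR element at 28 bases. CCNB1, lower with siCDO1A, holds an E2F match at 132 and CCAAT boxes at 87 and 55 bases. TOP2A, lower with siCDO1C, holds CCAAT boxes at 244, 160, 93 and 53 bases and CHR elements at 194 and 151 bases.
KIF20A (chr5:138178862-138179161, plus strand): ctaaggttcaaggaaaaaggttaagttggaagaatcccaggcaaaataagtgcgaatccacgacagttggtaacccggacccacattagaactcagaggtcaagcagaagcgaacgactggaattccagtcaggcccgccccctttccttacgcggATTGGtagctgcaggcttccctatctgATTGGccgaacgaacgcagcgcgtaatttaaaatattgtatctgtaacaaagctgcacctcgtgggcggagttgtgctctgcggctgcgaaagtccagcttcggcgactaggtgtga
KIF11 (chr10:92592880-92593179, plus strand): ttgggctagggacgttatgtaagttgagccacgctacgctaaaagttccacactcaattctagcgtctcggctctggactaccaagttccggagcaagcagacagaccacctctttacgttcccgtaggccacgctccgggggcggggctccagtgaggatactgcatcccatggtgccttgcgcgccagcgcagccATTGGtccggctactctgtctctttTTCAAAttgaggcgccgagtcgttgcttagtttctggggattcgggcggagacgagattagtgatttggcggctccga
CCNB1 (chr5:69166900-69167199, plus strand): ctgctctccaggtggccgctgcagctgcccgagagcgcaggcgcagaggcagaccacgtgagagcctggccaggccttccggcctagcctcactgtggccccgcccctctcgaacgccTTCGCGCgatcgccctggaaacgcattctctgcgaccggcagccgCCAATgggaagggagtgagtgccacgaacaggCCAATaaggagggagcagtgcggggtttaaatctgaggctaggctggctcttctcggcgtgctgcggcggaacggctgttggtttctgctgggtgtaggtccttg
TOP2A (chr17:40417847-40418146, minus strand): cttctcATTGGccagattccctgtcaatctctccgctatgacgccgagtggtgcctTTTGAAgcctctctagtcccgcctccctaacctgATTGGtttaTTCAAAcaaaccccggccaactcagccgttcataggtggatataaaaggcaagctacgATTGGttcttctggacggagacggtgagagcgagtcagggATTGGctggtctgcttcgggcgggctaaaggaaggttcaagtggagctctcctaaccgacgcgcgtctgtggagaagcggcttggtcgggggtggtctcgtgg

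Across the matched members 63.3% of windows held a CHR element, against 16.6% of the 27305 windows, 1 per gene. A CCAAT box stood in 73.3% of the members' windows and 35.7% of all, and both elements together in 53.3% and 6.58%. The 46 matched S phase genes were of another kind, with a CHR element in 6.52% and an E2F match in 69.6%, where the members had an E2F match in 30.0% and all windows in 13.1%. KIF11 and TOP2A both hold a CHR element and a CCAAT box and were called in opposite directions. These matches are letters found in a window, and binding was not measured.

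The kinesins move chromosomes and microtubules in mitosis, and 2 of the 5 rose with both siRNAs. KIF11 (ENSG00000138160, chr10:92593286-92655395, plus strand), also called Eg5, pushes the spindle poles apart. Its level was 103.6, 97.0 and 95.8 CPM in siCtrl, 115.6, 113.6 and 133.7 with siCDO1A, and 124.3, 125.7 and 131.9 with siCDO1C. All 6 knockdown libraries lay above all 3 siCtrl libraries. KIF11 was 22.6% higher with siCDO1A (log2 fold change 0.29, SE 0.0681, adjusted p = 0.00566) and 28.3% higher with siCDO1C (0.36, SE 0.0720, adjusted p = 0.00932). The siCDO1C call was lost without siCtrl replicate 2 or 3, with an adjusted p of up to 0.0872 by edgeR.

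KIF20A (ENSG00000112984, chr5:138178719-138187715, plus strand), or MKLP2, brings the chromosomal passenger complex to the central spindle. It was at 170.8, 177.0 and 163.4 CPM in siCtrl, 207.0, 191.5 and 213.0 with siCDO1A, and 208.6, 199.0 and 207.1 with siCDO1C. Again no knockdown library overlapped siCtrl. The gene was 19.7% higher with either siRNA, with log2 fold changes of 0.26 (SE 0.0578, adjusted p = 0.00425) and 0.26 (SE 0.0697, adjusted p = 0.0459). With the replicate block the siCDO1C call was lost (adjusted p = 0.102), as it was on leaving out siCDO1C replicate 1 or 3 or any siCtrl library (up to 0.194). KIF20A overlaps BRD8 and CDC23 on the opposite strand, and whether the counting used strand is not given in the sources used here.

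The other 3 kinesins did not pass the test. KIF23, a motor of the central spindle needed for cytokinesis, had log2 fold changes of -0.16 (adjusted p = 0.0986) with siCDO1A and -0.20 (adjusted p = 0.136) with siCDO1C, and its 6 knockdown libraries lay below those of siCtrl. KIF23 was called lower without siCDO1A replicate 3 (-0.21, adjusted p = 0.00938) and without siCDO1C replicate 2 (-0.23, adjusted p = 0.0149). KIF2C, which takes microtubules apart at centromeres, was at -0.07 and -0.01, and KIF4A, a chromosome-bound motor, at -0.02 and 0.01. The kinesins thus held 2 called rises, while 3 of the 5 lay below 0 with siCDO1A and 2 with siCDO1C. Those below 0 were not called in the main fits of 6 libraries.

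Among the mitotic kinases AURKA fell with both siRNAs. AURKA (ENSG00000087586, chr20:56369389-56392337, minus strand) encodes Aurora A, the kinase of centrosome maturation and spindle poles. It stood at 134.5, 133.9 and 145.1 CPM in siCtrl, 120.3, 120.6 and 119.6 with siCDO1A, and 107.9, 112.1 and 110.7 with siCDO1C. The 3 groups did not overlap, and the siCDO1C libraries were the lowest. AURKA fell by 12.9% with siCDO1A (log2 fold change -0.20, SE 0.0580, adjusted p = 0.0240) and by 20.4% with siCDO1C (-0.33, SE 0.0705, adjusted p = 0.0137). With the replicate block the siCDO1A call was lost (adjusted p = 0.118), as it was without siCDO1A replicate 1 or 2 or any siCtrl library (up to 0.104). The siCDO1C call was lost without siCDO1C replicate 1 or any siCtrl library (up to 0.0968).

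PLK1, the Polo kinase of mitotic entry and spindle assembly, was at 0.04 and 0.03 on the log2 scale in the same comparisons. AURKB, the kinase of the chromosomal passenger complex, was at -0.02 and 0.07, and neither kinase was called. The 3 kinases therefore did not move as a group, and AURKA was the only one of them past the test.

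Of the cyclins and their kinase CCNB1 was called, and only with siCDO1A. CCNB1 (ENSG00000134057, chr5:69167010-69178245, plus strand) encodes cyclin B1, which drives entry into mitosis with CDK1. It was at 210.2, 210.9 and 222.2 CPM in siCtrl, 194.6, 186.4 and 181.5 with siCDO1A, and 178.6, 217.7 and 180.2 with siCDO1C. The siCDO1A libraries lay below siCtrl, and with siCDO1C replicates 1 and 3 lay below siCtrl while replicate 2 was within its range. CCNB1 fell by 12.6% with siCDO1A (log2 fold change -0.19, SE 0.0543, adjusted p = 0.0188) and was at -0.17 with siCDO1C (SE 0.0818, adjusted p = 0.297). Without siCDO1C replicate 2 CCNB1 was also called with siCDO1C (-0.26, adjusted p = 0.000768). The siCDO1A call was lost with the replicate block (adjusted p = 0.106) and without siCDO1A replicate 2 or siCtrl replicate 1, 2 or 3 (up to 0.0747).

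CDK1, the kinase that CCNB1 activates, was on the other side of 0. It was at 130.4, 128.0 and 126.8 CPM in siCtrl, 142.2, 140.7 and 142.8 with siCDO1A, and 119.8, 161.6 and 126.8 with siCDO1C. The siCDO1A libraries were all above siCtrl, and with siCDO1C replicate 1 lay below siCtrl, replicate 2 above it and replicate 3 at its lower end. Its log2 fold change was 0.14 (SE 0.0553, adjusted p = 0.0865) with siCDO1A and 0.08 (SE 0.0954, adjusted p = 0.734) with siCDO1C, or -0.06 without siCDO1C replicate 2. With trends of GC content and length removed CDK1 was called with siCDO1A (0.17, adjusted p = 0.00523). CCNA2, the cyclin of S phase and G2, had -0.18 with siCDO1A, the nearest member outside the threshold (adjusted p = 0.0504), and -0.15 with siCDO1C. CCNA2 was called lower without siCDO1A replicate 3 (-0.21, adjusted p = 0.0119), without siCDO1C replicate 2 (-0.22, adjusted p = 0.018) and with those trends removed (-0.16, adjusted p = 0.0172). CCNB2, a second B-type cyclin, had -0.07 and -0.06.

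The CDC25 phosphatases remove the inhibitory phosphates from CDK1 and its relatives, and 0 of the 3 were called in either comparison by edgeR or DESeq2. At an unadjusted p under 0.05 the count was 0 higher and 1 lower with siCDO1A, and 0 with siCDO1C. CDC25A, which also acts at the entry to S phase, had log2 fold changes of 0.13 and 0.18. CDC25B was at -0.12 and -0.08, and CDC25C at -0.01 in both. CDC25A was called without siCDO1C replicate 2 (0.27, adjusted p = 0.0108), and CDC25B was called lower with siCDO1A once trends of GC content and length were removed (-0.17, adjusted p = 0.00435). The CDC25A intervals held the S phase median in both comparisons, and those of CDC25B and CDC25C lay below it.

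MYBL2 and FOXM1, the transcription factors of the mitotic wave, differed. MYBL2 (ENSG00000101057, chr20:43667019-43716496, plus strand) was at 150.4, 146.0 and 158.4 CPM in siCtrl, 172.9, 174.4 and 171.2 with siCDO1A, and 156.7, 175.4 and 156.3 with siCDO1C. The siCDO1A libraries were all above siCtrl, and the siCDO1C libraries overlapped it. MYBL2 rose by 13.9% with siCDO1A (log2 fold change 0.19, SE 0.0554, adjusted p = 0.0251), the member nearest to the threshold on its inner side, and had 0.10 with siCDO1C (SE 0.0738, adjusted p = 0.547). The siCDO1A call was lost with the replicate block (adjusted p = 0.123), with trends of GC content and length removed (0.08, adjusted p = 0.228), and without siCDO1A replicate 1 or 2 or siCtrl replicate 1 or 2 (up to 0.149).

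FOXM1 was at 213.4, 212.3 and 212.0 CPM in siCtrl, 199.7, 189.4 and 218.1 with siCDO1A, and 207.7, 180.3 and 211.4 with siCDO1C. The siCtrl libraries lay within 2 CPM of each other, and the knockdown libraries spread more widely, mostly below them. Its log2 fold change was -0.07 (SE 0.0577, adjusted p = 0.468) with siCDO1A and -0.10 (SE 0.0765, adjusted p = 0.559) with siCDO1C. Neither was called.

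Of the centromere and kinetochore genes CENPA was called, and only with siCDO1A. CENPA (ENSG00000115163, chr2:26764289-26801067, plus strand) encodes the histone H3 variant that marks centromeres. It was at 42.6, 38.8 and 42.2 CPM in siCtrl, 32.2, 35.9 and 31.3 with siCDO1A, and 34.3, 43.8 and 37.4 with siCDO1C. The siCDO1A libraries were all below siCtrl, and siCDO1C replicate 2 was the highest of the 9. CENPA fell by 19.6% with siCDO1A (log2 fold change -0.31, SE 0.0834, adjusted p = 0.0140) and had -0.11 with siCDO1C (SE 0.0986, adjusted p = 0.625). The siCDO1A call was lost with the replicate block (adjusted p = 0.0542) and without siCDO1A replicate 1 or siCtrl replicate 1 (up to 0.0686), and CENPA overlaps SLC35F6 on the same strand, so reads of the shared stretch may be split.

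The other 4 genes of this group were not called in the main fits of 6 libraries. CENPE, a kinetochore motor, was at -0.17 and -0.11 on the log2 scale, siCDO1A first, and CENPF, a large kinetochore protein, -0.08 and -0.05. NDC80 and NUF2, which pair in the complex that grips microtubules, were at 0.11 and 0.11, and at -0.12 and -0.02. The partners NDC80 and NUF2 thus lay on either side of 0 with siCDO1A, each with an adjusted p above 0.05. Without siCDO1A replicate 3 CENPE (-0.30, adjusted p = 0.000739) and CENPF (-0.15, adjusted p = 0.0389) were called lower with siCDO1A.

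The spindle checkpoint holds anaphase until every chromosome is attached, and 0 of its 4 genes were called by edgeR or DESeq2 in either comparison with siCtrl, with 1 lower at an unadjusted p under 0.05 with siCDO1A and 0 with siCDO1C. BUB1, a kinase of the checkpoint, had log2 fold changes of -0.17 (adjusted p = 0.0879) and -0.04. BUB1B, which encodes BUBR1, was at -0.02 and -0.01, TTK, or MPS1, at -0.03 and -0.01, and MAD2L1, the inhibitor of CDC20, at 0.08 and 0.12. BUB1 was called lower without siCDO1A replicate 3 (-0.21, adjusted p = 0.0132). In the main fits of 6 libraries the checkpoint genes stayed within 0.17 of 0 in both comparisons.

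The genes of anaphase and mitotic exit gave 0 calls by edgeR or DESeq2, with 1 of 4 higher at an unadjusted p under 0.05 with siCDO1A and 0 with siCDO1C. CDC20, which activates the anaphase-promoting complex, was at -0.11 in both comparisons, and it was called lower with siCDO1A once trends of GC content and length were removed (-0.19, adjusted p = 0.00283). UBE2C, the ubiquitin-conjugating enzyme of that complex, had log2 fold changes of 0.15 (adjusted p = 0.129) and 0.13. PTTG1, or securin, was at -0.07 and -0.12, and ESPL1, the separase that securin restrains, at -0.05 and -0.03. Securin and separase thus differed from siCtrl by less than the test could call.

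The 4 spindle and midzone genes gave 0 calls by edgeR or DESeq2, with 1 lower at an unadjusted p under 0.05 with siCDO1A and 0 with siCDO1C. TPX2, which activates Aurora A on the spindle, had log2 fold changes of -0.04 and -0.03, so it did not follow AURKA past the test. DLGAP5, which stabilizes spindle microtubules, was at -0.18 (adjusted p = 0.0699) and -0.11, and BIRC5, or survivin, at -0.06 and -0.07. DLGAP5 was called lower without siCDO1C replicate 2 (-0.24, adjusted p = 0.0134) and, with siCDO1A, once trends of GC content and length were removed (-0.16, adjusted p = 0.0362). PRC1, which bundles the microtubules of the midzone, had 11 to 35 counts a library and an SE of 0.303 and 0.374, so its values of 0.06 and -0.01 could not show a change of the size seen in other members. Part of its stretch is shared with AC068831.7 on the same strand, and that gene and a small RNA took 929 counts over all libraries where PRC1 took 197.

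TOP2A, the member with the highest level, fell with siCDO1C. TOP2A (ENSG00000131747, chr17:40388516-40417950, minus strand) encodes topoisomerase II alpha, which untangles the sister chromatids. It was at 783.4, 771.6 and 695.4 CPM in siCtrl, 705.0, 721.3 and 777.0 with siCDO1A, and 577.2, 576.7 and 641.7 with siCDO1C. All 3 siCDO1C libraries lay below the other 6, and those of siCDO1A lay within the siCtrl range. TOP2A fell by 20.6% with siCDO1C (log2 fold change -0.33, SE 0.0758, adjusted p = 0.0204) and had -0.03 with siCDO1A (SE 0.0549, adjusted p = 0.771). The siCDO1C call was lost without siCDO1C replicate 1 or siCtrl replicate 1 or 2 (up to 0.153).

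MKI67, whose product Ki-67 coats mitotic chromosomes and is a common marker of dividing cells, gave no call in the main fits of 6 libraries. It was at 399.7, 369.1 and 345.6 CPM in siCtrl, 304.3, 335.9 and 413.6 with siCDO1A, and 402.8, 230.2 and 421.9 with siCDO1C. The siCDO1C group held both the lowest and the highest of the 9 libraries. Its log2 fold change was -0.08 (SE 0.0935, adjusted p = 0.635) with siCDO1A and -0.09 (SE 0.225, adjusted p = 0.896) with siCDO1C. Within batches 1, 2 and 3 the siCDO1C value was 0.01, -0.68 and 0.29, and without siCDO1C replicate 2 it was 0.15 (adjusted p = 0.0627). Without siCDO1A replicate 3 MKI67 was called lower with siCDO1A (-0.21, adjusted p = 0.00256).

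**Figure D4:**
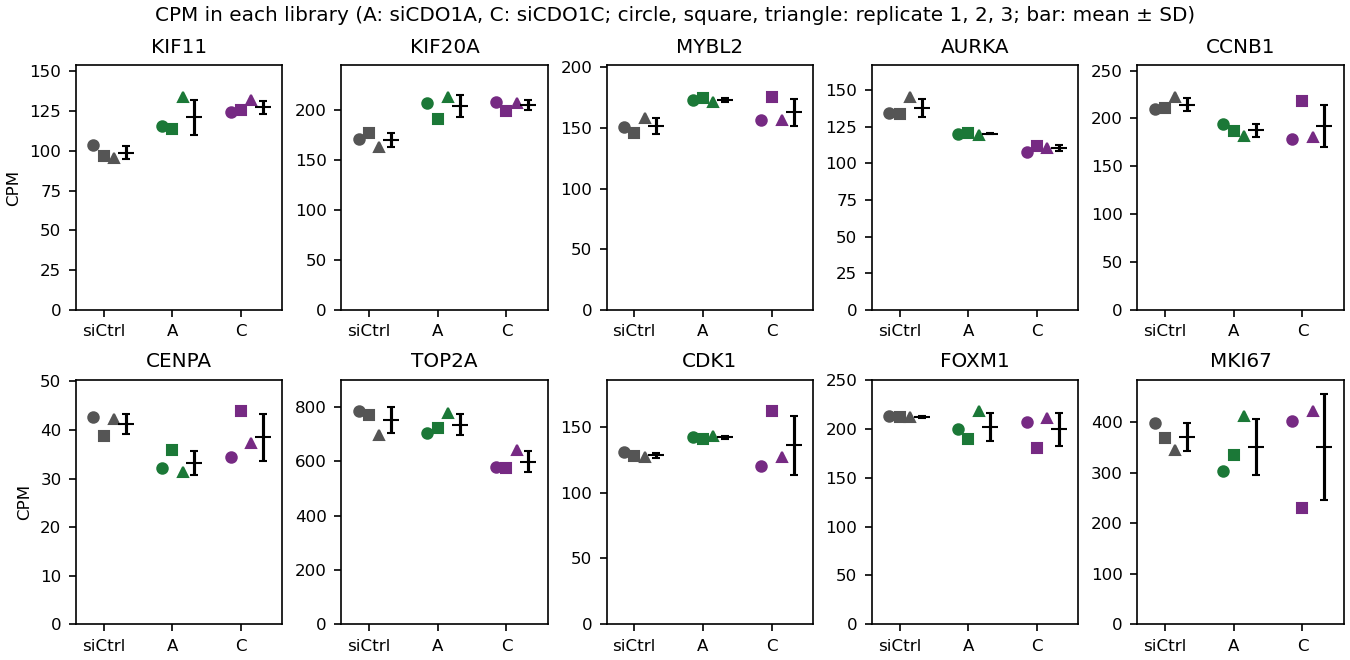
CPM (vertical axis, from 0) of 10 members in the 9 libraries, with circles, squares and triangles for replicates 1, 2 and 3 and bars for the mean and SD of 3 libraries. KIF11 and KIF20A lie above siCtrl with both siRNAs and AURKA below it, and siCDO1C replicate 2 (square) stands apart for CDK1 at 161.6 CPM and MKI67 at 230.2 CPM.

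The called members have different tasks in mitosis, with the motors KIF11 and KIF20A, the pole kinase AURKA, the cyclin CCNB1, the centromere histone CENPA, the transcription factor MYBL2 and the topoisomerase TOP2A.

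Compared directly, siCDO1C and siCDO1A differed in 0 of the 36 members by edgeR, where 0.444% of all genes were called, 0.244% higher and 0.199% lower with siCDO1C. At an unadjusted p under 0.05 the count was 1, beside 596 higher and 594 lower of the 15555 genes tested. DESeq2 called 1, where it called 0.867% of the 11875 genes to which it gave an adjusted p. In each case it was TOP2A, which was lower with siCDO1C. Its log2 fold change between the siRNAs was -0.30 (95% interval -0.47 to -0.13, adjusted p = 0.169 by edgeR and 0.0373 by DESeq2), and with the replicate block its adjusted p was 0.0453. For CENPA the difference was 0.21 (-0.02 to 0.44), for AURKA -0.13 (-0.29 to 0.03) and for KIF11 0.07 (-0.11 to 0.25). The intervals of these 3 genes held 0. A call with 1 siRNA and not with the other, as for CENPA, does not by itself show that the siRNAs differed.

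The siCDO1C replicate 2 library differed from its 2 partners by gene length. Its members lay between -1.01 (PRC1) and 0.47 (NUF2) of the mean of the partners in log2 CPM, with an SD over members of 0.316, where the other libraries had 0.0831 to 0.229. PRC1 had 11 counts in this library, and 35 and 17 in replicates 1 and 3, so its values rest on few counts. They also enter these SDs and the correlations below. MKI67 was at -0.84, ESPL1 at -0.33, CENPF at -0.19 and CENPE at -0.21, the 4 longest members, while CDK1 was at 0.39 and DLGAP5 at 0.38. Across the 36 members the Pearson correlation of this deviation with log2 gene length was -0.60 (Spearman -0.64), and over 11295 genes it was -0.48. All points share the library, members are not replicates, and the values of 0.41 and 0.70 in siCDO1C replicates 1 and 3 are each set against a mean that holds replicate 2. Other libraries leaned as well, with 0.71 for siCDO1A replicate 3 and -0.62 for siCtrl replicate 3. Without this library 9 members were called with siCDO1C, 3 higher and 6 lower, with CDC25A, CCNA2, CCNB1, KIF23 and DLGAP5 added, and the share of all genes called went from 4.77% to 13.3%. Of the 36 log2 fold changes 8 then had the other sign. The members that moved most were PRC1 (-0.01 with the library and 0.29 without), MKI67 (-0.09 and 0.15), NUF2 (-0.02 and -0.19), CDK1 (0.08 and -0.06) and DLGAP5 (-0.11 and -0.24). With trends of GC content and length removed from all libraries, 4 members were called with siCDO1C at a median of -0.03. Of the S phase genes 24 were then called at a median of 0.24, and 8.87% of all genes were.

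**Figure D5:**
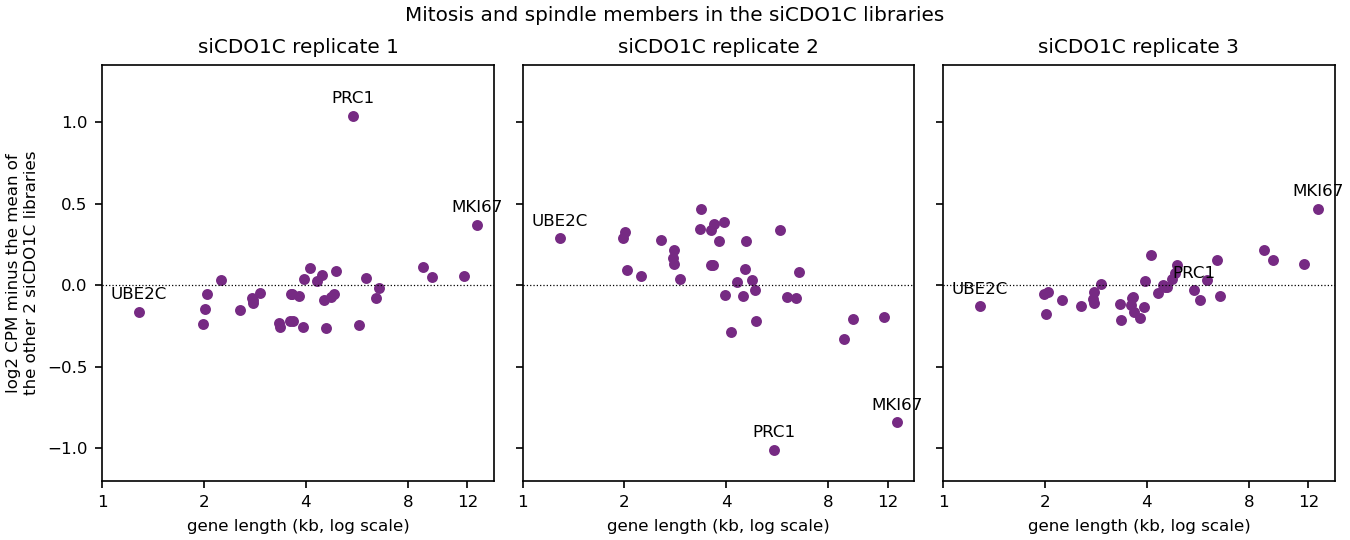
Deviation of each of the 36 members from the mean of the other 2 siCDO1C libraries in log2 CPM (vertical axis) against gene length in kb (log axis), in the 3 siCDO1C libraries. In replicate 2 the points fall with length (Pearson -0.60), from UBE2C at the short end to MKI67 at -0.84.

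Other genes of mitosis were read from a list of 80, all of them tested. With siCDO1A 3 were higher and 11 lower, which is 17.5% beside the background of 14.8%, and the median log2 fold change was -0.0023. With siCDO1C 1 was higher and 2 lower, 3.75% beside 4.77%, with a median of -0.0054. These medians lay with those of the members and not with the S phase medians. FAM83D, a spindle protein, was higher with both (0.28, adjusted p = 0.00949, and 0.31, adjusted p = 0.0423). CEP55, which acts at the last cut between daughter cells, was lower with both (-0.48, adjusted p = 0.000245, and -0.42, adjusted p = 0.00602), as was HMMR, a spindle assembly protein (-0.38, adjusted p = 0.00174, and -0.47, adjusted p = 0.00687). The FAM83D call was lost with siCDO1C under the replicate block (adjusted p = 0.058) and on leaving out any library but siCDO1C replicate 2 (up to 0.231), and with siCDO1A without siCDO1A replicate 1 or siCtrl replicate 1 (up to 0.0799). The siCDO1C calls of CEP55 (up to 0.0581) and HMMR (up to 0.0646) were lost without siCDO1C replicate 1 or siCtrl replicate 1, and that of HMMR also without siCtrl replicate 2.

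CDCA8, or borealin, which joins AURKB and BIRC5 in the chromosomal passenger complex, fell with siCDO1A, with a log2 fold change of -0.53 (adjusted p = 3.29e-05), and had -0.12 with siCDO1C (adjusted p = 0.472). Its levels were 72.4, 77.2 and 78.0 CPM in siCtrl, 52.5, 56.4 and 49.0 with siCDO1A, and 69.1, 76.5 and 64.5 with siCDO1C. The siCDO1A libraries lay below the other 6. Between the siRNAs the difference was 0.41, with an adjusted p of 0.0819 by edgeR 0.0206 by DESeq2 and 0.0174 with the replicate block. The partners AURKB and BIRC5 lay within 0.07 of 0 in both comparisons with siCtrl. SPC24, a kinetochore gene, was higher with siCDO1A (0.38, adjusted p = 0.0239) and had 0.38 with siCDO1C (adjusted p = 0.0955), and the SPC24 call was lost without siCDO1A replicate 1 or 2 or siCtrl replicate 1 or 2 (up to 0.122).

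The S phase genes set beside the members included MCM4, a subunit of the replicative helicase, which rose with siCDO1A (0.38, adjusted p = 2.97e-05) and siCDO1C (0.40, adjusted p = 0.00299). POLD3, a subunit of DNA polymerase delta, rose with both as well (0.61, adjusted p = 0.00014, and 0.63, adjusted p = 0.00363). The S phase gene that fell with siCDO1A was RFC1, the large subunit of the clamp loader (-0.19, adjusted p = 0.0438), and it had -0.16 with siCDO1C. The RFC1 call was lost with the replicate block (adjusted p = 0.154) and without siCDO1A replicate 1 or 2 or siCtrl replicate 1 or 2 (up to 0.182). The POLD3 change was larger than that of any of the 36 members, whose log2 fold changes ran from -0.31 to 0.29 with siCDO1A and from -0.33 to 0.36 with siCDO1C.

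The members' levels were high enough for these comparisons, with the exception of PRC1. Divided by gene length, TOP2A had the highest level in siCtrl at 116.5 ± 7.42 CPM per kilobase (SD, n = 3), followed by CCNB1 at 83.8, TPX2 at 68.6, UBE2C at 61.4 and CDC20 at 61.0. The median member was at 21.0, and NUF2 at 9.71 was the lowest apart from PRC1 at 0.285 ± 0.0586. Leaving out PRC1, a member had between 320 and 11756 counts in a library.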

How the data were processed

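Poly(A) RNA was sequenced from strand-specific libraries. Per the labels and the study's methods, the authors aligned the reads to hg38 with HISAT2 2.0.5 (submitters' processing notes) and counted them per gene with featureCounts; strand and multimapping settings are not given in the sources used here. The deposited values are whole-number counts per gene, not normalized, and the gene coordinates and lengths are those deposited. The table has 3 further columns that match no labelled sample and were not used.

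Groups came from the labels. Genes were kept by filterByExpr (minimum count 10), scaled by TMM and tested with edgeR 4.0.16 (R 4.3.3) quasi-likelihood, 1 fit of 6 libraries for each of 3 comparisons, with Benjamini-Hochberg adjustment and a threshold of 0.05. CPM are counts scaled to a common total after TMM scaling, and intervals are at 95%. DESeq2 1.42.0 was an alternative, as were the other settings of the closing section. The trends of GC content and length were removed as an alternative chosen after seeing the data. The scripts were tested on simulated data with 200 changed genes.

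The labels give a batch number equal to the replicate number, which pairs the libraries, and the number also entered as a replicate block in another fit. Over 11337 genes the deviations of same-numbered libraries from their group means had correlations between -0.37 and 0.372.

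The p-values measure the spread between libraries, and 3 counts as a floor covers counting error only. The members and lists were chosen with earlier results of these data known. All 36 members are given; library values are given for those called in any comparison and for CDK1, CCNB1, MKI67, TOP2A, FOXM1 and MYBL2. From the other lists, the 2 called genes with the smallest adjusted p in each direction were named, and 30 of 36 members matched a RefSeq promoter window.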

Additional observations from a re-analysis of the deposited data

Results flagged for a closer look

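ANLN encodes anillin, a scaffold of the contractile ring that divides the cell. Among the members and the 3 lists set beside them it was the only gene that edgeR called in the direct comparison of the siRNAs, and it was named after its values were seen. Its level was 75.4, 77.7 and 73.3 CPM in siCtrl, 62.0, 66.0 and 64.1 with siCDO1A, and 83.5, 81.9 and 89.4 with siCDO1C. The 3 groups did not overlap, with siCDO1A below siCtrl and siCDO1C above it. ANLN fell with siCDO1A (log2 fold change -0.24, adjusted p = 0.0185) and had 0.16 with siCDO1C (adjusted p = 0.26), and the difference between the siRNAs was 0.40 (SE 0.084, adjusted p = 0.0391 by edgeR's quasi-likelihood test), which a test of the difference itself brought up here. Its adjusted p was 0.00376 by DESeq2 and 0.0162 with the replicate block. It was 0.00225 without siCDO1C replicate 2 and ran from 0.13 to 0.374 without siCDO1C replicate 1 or 3 or any siCDO1A library. The siCDO1A call against siCtrl was lost with the replicate block (adjusted p = 0.0841) and without siCDO1A replicate 1 or siCtrl replicate 1 or 2 (up to 0.0989), and against siCtrl siCDO1C was called without its replicate 2 (0.19, adjusted p = 0.0498).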

How the results depend on the processing

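The numbers of calls moved with the libraries and the model, and the medians less so. With siCDO1A the members called were 6, where 14.8% of all genes were. They were 2 with 1 fit of all 9 libraries (8.8% of all genes) and 2 with the replicate block (8.73%). Each time 2 were higher and 0 lower. With trends of GC content and length removed the members called were 10 (21.5%), 3 higher and 7 lower. Leaving out a library each gave 2 to 12 (8.31% to 22.2%). The 2 were 2 higher and 0 lower, and the 12 were 3 higher and 9 lower. The members' median was -0.0308 with those trends removed and -0.0319 with the block as well, and -0.0762 to -0.0355 without a library each. The S phase calls were 15 in the fit of all 9 libraries, 14 with the block, and 12 (without siCtrl replicate 2) to 28 without a library each, and their median 0.205 to 0.242. With siCDO1C the members called were 0 to 9 (1.69% to 13.3% of all genes) and their median -0.0613 to -0.00911 without a library each. The S phase calls were 8 with the block (4.08% of all genes), 24 with the trends removed (8.87%) and 24 with both (8.72%). Without a library each they were 2 (without siCtrl replicate 2 or 3) to 25 (without siCDO1C replicate 2), and their median 0.215 to 0.261. Between the siRNAs DESeq2 called 1 member (0.867% of the 11875 genes to which it gave an adjusted p). The count was also 1 with the block (0.778% of all genes), with the trends removed (1.05%) and with both (1.75%). Without a library each it was 0 to 1 (0.116% to 2.87%), the median running from -0.0233 to 0.0336, and the S phase median from -0.0219 to 0.019. CDO1 was 80.5% to 84.9% and 85.8% to 91.9% lower without a library each. Of 1512 member values under an alternative 1445 stayed on their side of the threshold, 27 passed it newly and 40 no longer passed. The values that changed sign were 134, all of them uncalled, and 0 calls reversed. Beyond those named in the report the replicate block changed no other call of a member. With 3 libraries a group, a median interval reach of 0.14 to 0.17 to either side (log2) limits what a single gene can show.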

Other observations

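The 28 regulators of the cell cycle programme, all tested, held 4 higher and 5 lower genes with siCDO1A and 2 higher and 0 lower by edgeR with siCDO1C, at medians of 0.07 and 0.05. These are 32.1% and 7.14% of the list, beside 14.8% and 4.77% of all genes tested. E2F1 and E2F2, activators of the genes of S phase entry, were higher with both siRNAs. E2F1 had log2 fold changes of 0.29 (adjusted p = 0.00455) and 0.33 (adjusted p = 0.0326) by edgeR. E2F2 had 0.33 (adjusted p = 0.0132) and 0.44 (adjusted p = 0.00964). With trends of GC content and length removed E2F1 was smaller, at 0.163 (adjusted p = 0.0216) and 0.269 (adjusted p = 0.00832) by edgeR. E2F2 was then at 0.325 and 0.451. RBL2, the p130 pocket protein of resting cells, fell with siCDO1A (-0.39, adjusted p = 0.000654) and had -0.31 with siCDO1C (adjusted p = 0.0549). CDKN1B, the p27 inhibitor of CDKs, fell with siCDO1A (-0.26, adjusted p = 0.00964) and had -0.07 with siCDO1C (adjusted p = 0.696). The E2F2 and CDKN1B calls with siCDO1A were lost with the replicate block (adjusted p = 0.0522 and 0.052). Leaving out siCDO1A replicate 1 or 2 or siCtrl replicate 1 or 2 ended the E2F2 call with siCDO1A (up to 0.0674), and leaving out siCtrl replicate 2 the CDKN1B call (0.0613). With siCDO1C the E2F1 call was lost without siCDO1C replicate 1 or siCtrl replicate 1 or 2 (up to 0.187), the E2F2 call without any siCtrl library (up to 0.0646), and RBL2 was called by DESeq2 (adjusted p = 0.0479).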
